A study of Mus musculus with 6 samples.

Results

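Krüppel-like factors, zinc finger proteins that regulate transcription, were followed across colonic crypts after dextran sulfate sodium (DSS), crypts of colon adenomas and untreated crypts of the mouse. The members were the 8 genes Klf2, Klf3, Klf4, Klf5, Klf6, Klf9, Klf10 and Klf13, chosen by symbol, and they comprised every probe set that the array's annotation ties to exactly 1 of these symbols. They are 8 of 12393 such symbols and held 22 of the 20380 probe sets with a single symbol. Of these, 19 lay above their array's median intensity on at least 2 of the 6 arrays, and each of the 8 genes kept at least 1 such probe set. The 3 that did not pass were 2 of the 7 for Klf9 and 1 of the 3 for Klf13.

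RNA of crypts, the glands that line the colon, was hybridised to 6 Affymetrix expression arrays, 2 for each of 3 groups, all from male mice heterozygous for Lgr5-lacZ, a lacZ reporter allele of the stem cell receptor gene Lgr5. DSS crypts came from the distal colon of mice aged 6 to 8 weeks that drank 1% DSS, a polysaccharide that injures the colonic epithelium, and were taken on day 2. Tumor crypts came from adenomas, 12 pooled for each array, of mice injected at 6 to 8 weeks with 12.5 mg per kg of azoxymethane (AOM), a colon carcinogen. These mice began DSS 5 days later, for 5 days each at 2, 1.5 and 1.0%, with 14 days of water after a cycle, and were sampled 90 days after AOM. Control crypts came from the distal colon of untreated mice aged 6 to 8 weeks. Each array held material from 2 mice, so single animals cannot be seen, and the labels call the arrays of a group independent biological replicates. Tumor mice were older than the others when sampled, and only they had received AOM and repeated DSS cycles. No array held crypts from outside the adenomas of such mice, so age, AOM, the DSS cycles and tumor cannot be told apart.

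All Krüppel-like factors bind GC-rich and CACCC elements of DNA through the same type of C-terminal zinc fingers and differ in the parts that recruit activators or repressors. In the intestine Klf4 is known from the differentiated upper crypt, where it restrains division and is needed for mature goblet cells, while Klf5 is known from the dividing cells of the lower crypt. Several others respond to signals from outside the cell: Klf10 to transforming growth factor beta, Klf9 to glucocorticoids, and Klf2 and Klf6 to flow, growth factors or injury in other cell types.

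Values were MAS5 signal intensities on a linear scale, and array medians ranged from 94.2 to 131. Log2 differences were taken on log2(intensity + 17.8), all 7456 genes with a probe set past the intensity filter were fitted together with limma, and a gene was called when its Benjamini-Hochberg adjusted p was under 0.05. For a gene with several probe sets the one of highest mean was tested, and the others are given from a fit of all 12146 probe sets past the filter. The pan-epithelial markers marked the material as epithelium, with all 12 above the array median on at least 2 arrays and summed intensities of 89217 and 78508 in DSS, 78481 and 76571 in tumor and 79524 and 73434 in control crypts. Of the genes of other cell types, all 9 T and NK cell genes with a probe set failed the filter, as did 11 of 12 endothelial genes, whereas 4 of 10 myeloid, 10 of 12 fibroblast and 7 of 10 smooth muscle genes passed it, with 2 of 6 B and plasma cell genes. In tumor against control crypts 12.8% of all tested genes were called higher and 9.74% lower, and the counts that follow are to be read against these shares. Of the 4 myeloid genes tested, 2 were called higher (Lyz2 by 3.89 and Cd14 by 0.70). So were 2 of 10 fibroblast genes (Vim by 3.25 and Fn1 by 2.34) and 2 of 12 pan-epithelial genes (Cldn4 by 3.58 and Krt18 by 0.63). None of these lists had a gene called lower, and no endothelial, B cell or smooth muscle gene passed. Called or not, 5 of 10 fibroblast genes had positive tumor differences (median -0.16), and 0 of 7 smooth muscle genes did (median -1.47). In DSS against control crypts no gene of these lists passed, where 0 of all 7456 tested genes did. Actin probe sets at the 3' and 5' ends, whose log2 ratio tracks RNA quality, gave 0.95 and 1.04 for tumor crypts, against 1.20 to 1.63 elsewhere. The ratio thus moved with the tumor group, and its part in the tumor results was not tested.

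Klf4 was the member that fell most in tumor crypts. Its tested probe set measured 9117 and 9515 in DSS crypts, 3654 and 4668 in tumor crypts and 9088 and 7670.0 in control crypts. Both tumor arrays lay below all 4 others, while both DSS arrays lay above both controls, and the DSS and control means differed by less than the 2 controls did. Tumor crypts averaged 4161 ± 717 against 8379 ± 1003 in control crypts (mean ± SD, n = 2 each), a ratio of 0.497 and a log2 difference of -1.01 ± 0.17 (SE, adjusted p = 0.00469). The second Klf4 probe set gave 1551 and 1797 in tumor crypts and 4099.8 and 3736 in control crypts, a log2 difference of -1.22 ± 0.16 (adjusted p = 0.00212). Against DSS crypts the tumor difference of Klf4 was -1.17 ± 0.17 (adjusted p = 0.00219) and -1.51 ± 0.16 on the second probe set (adjusted p = 0.000756). The fall against control passed under all 18 other settings tried, where it lay between -1.26 and -0.84. In bulk crypts, fewer cells of a type and less RNA per cell cannot be told apart.

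Klf9, a glucocorticoid- and thyroid hormone-responsive member known as a transcriptional repressor, also fell in tumor crypts. Its tested probe set measured 4901 and 3831 in DSS crypts, 2429.7 and 2327 in tumor crypts and 3892 and 3599 in control crypts. Here too the tumor arrays were the lowest of the 6, and the control arrays lay on either side of the lower DSS array. The tumor mean of 2378 ± 72.9 stood against 3745 ± 207 in control crypts, a log2 difference of -0.65 ± 0.17 (adjusted p = 0.0275), and against DSS crypts the difference was -0.86 ± 0.17 (adjusted p = 0.00785). All 5 Klf9 probe sets past the filter were lower in tumor than in control crypts, with differences of -0.31 to -1.20, and 3 of them were called, where 19.6% of all probe sets tested were called. The remaining pair measured -0.59 ± 0.19 (adjusted p = 0.0664) and -0.31 ± 0.25 (adjusted p = 0.425), the second of these on a set whose _s_at suffix marks probes shared between transcripts. The call against control is the less firm: it ended with the log2 difference at -0.68 without tumor replicate 1, -0.62 without tumor replicate 2, -0.59 without control replicate 1 and -0.71 without control replicate 2, and the call against DSS crypts ended at -0.68 without DSS replicate 1. The call against control also ended when the 2 groups were fitted alone with the replicate number as a block (adjusted p = 0.0675), a setting chosen after seeing the data.

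The start regions of both falling genes are shown because they moved the same way in tumor crypts, with that of Klf6, whose 3 probe sets were higher in tumor crypts without passing, beside them. RefSeq sequences of 250 bases before to 50 after the start (GRCm38.p6) matched 6 of the 8 members by symbol, and Klf5 and Klf10 had no entry. Klf4 lies at chr4:55532426-55532725 (minus strand), Klf9 at chr19:23140976-23141275 (plus strand) and Klf6 at chr13:5861239-5861538 (plus strand). Capitals mark GGGCGG and CACCC on either strand, the GC box and CACCC box that members of the family bind, and neighbouring matches may share a base.
Klf4: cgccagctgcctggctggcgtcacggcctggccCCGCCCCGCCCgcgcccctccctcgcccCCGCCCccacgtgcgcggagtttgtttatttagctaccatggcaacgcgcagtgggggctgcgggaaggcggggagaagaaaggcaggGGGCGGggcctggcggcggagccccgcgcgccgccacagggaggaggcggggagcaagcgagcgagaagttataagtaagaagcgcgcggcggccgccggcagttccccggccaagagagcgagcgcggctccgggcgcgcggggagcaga
Klf9: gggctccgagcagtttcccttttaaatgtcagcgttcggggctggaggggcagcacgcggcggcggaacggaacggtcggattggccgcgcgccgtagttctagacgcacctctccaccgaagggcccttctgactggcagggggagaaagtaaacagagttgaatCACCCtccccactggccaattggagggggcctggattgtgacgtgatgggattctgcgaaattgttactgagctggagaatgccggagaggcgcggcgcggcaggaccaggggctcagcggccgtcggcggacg
Klf6: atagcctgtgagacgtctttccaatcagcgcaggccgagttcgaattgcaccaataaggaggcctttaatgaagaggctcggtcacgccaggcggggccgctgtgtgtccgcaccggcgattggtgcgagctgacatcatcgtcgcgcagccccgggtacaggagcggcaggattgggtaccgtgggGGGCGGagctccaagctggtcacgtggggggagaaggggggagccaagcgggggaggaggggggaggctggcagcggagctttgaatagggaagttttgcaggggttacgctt
The Klf4 window held 4 GC boxes and no CACCC box, the Klf9 window no GC box and 1 CACCC box, and the Klf6 window 1 GC box and no CACCC box. Among the 6 member windows, 5 held a GC box and 4 a CACCC box, against 35.7% and 57.5% of all 32851 promoters of the same length. The E-box CACGTG was in the Klf4 and Klf6 windows and in 7.15% of all promoters. The core TGACG of the cyclic AMP response element was in 5 of 6 member windows, among them Klf4 and Klf9, and in 20.8% of all promoters. CCAAT was in 3 of 6 windows, with 3 matches in Klf9 and 4 in Klf6, and in 37.4% of all promoters. The spaced repeat ACANNNTGT, a short form of the glucocorticoid receptor's element, was in none of the 6 windows and in 6.85% of all promoters. Member windows were rich in G and C, at 63.0 to 76.7% against a median of 52.7%, which bears on every count of GC-rich letters, and a match is a description of the sequence alone.

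Klf10, induced early by transforming growth factor beta and known as a repressor of growth, was the one member whose tested probe set was higher than both controls on every DSS and tumor array. Its probe set measured 1273 and 1184 in DSS crypts, 1405 and 1345 in tumor crypts and 644 and 588 in control crypts. The DSS and tumor arrays together spanned 1184 to 1405, with no overlap with control. The rise in tumor crypts had a log2 difference of 1.14 ± 0.16 (adjusted p = 0.00208), with a mean of 1375 ± 42.9 against 616 ± 39.7 in control crypts (mean ± SD, n = 2 each), and it passed under all 18 other settings. In DSS crypts the mean was 1228 ± 63.3 against 616 ± 39.7 in control crypts, and the log2 difference of 0.98 ± 0.16, with a 95% interval of 0.61 to 1.34, did not pass (adjusted p = 0.466). Only when the 2 groups were fitted alone with the replicate number as a block, a setting chosen after seeing the data that leaves 1 residual degree of freedom, was it called (adjusted p = 6.04e-07, within a range up to 1.00 over the 18 settings). The numbers are not known to pair the samples. Between arrays of the same number the DSS difference was 0.96 and 0.99, and the tumor difference 1.11 and 1.17. Tumor and DSS crypts differed by 0.16 on the log2 scale, with a 95% interval of -0.20 to 0.52 (adjusted p = 0.491), so a difference in Klf10 between them was not detected with these arrays.

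**Figure D1:**
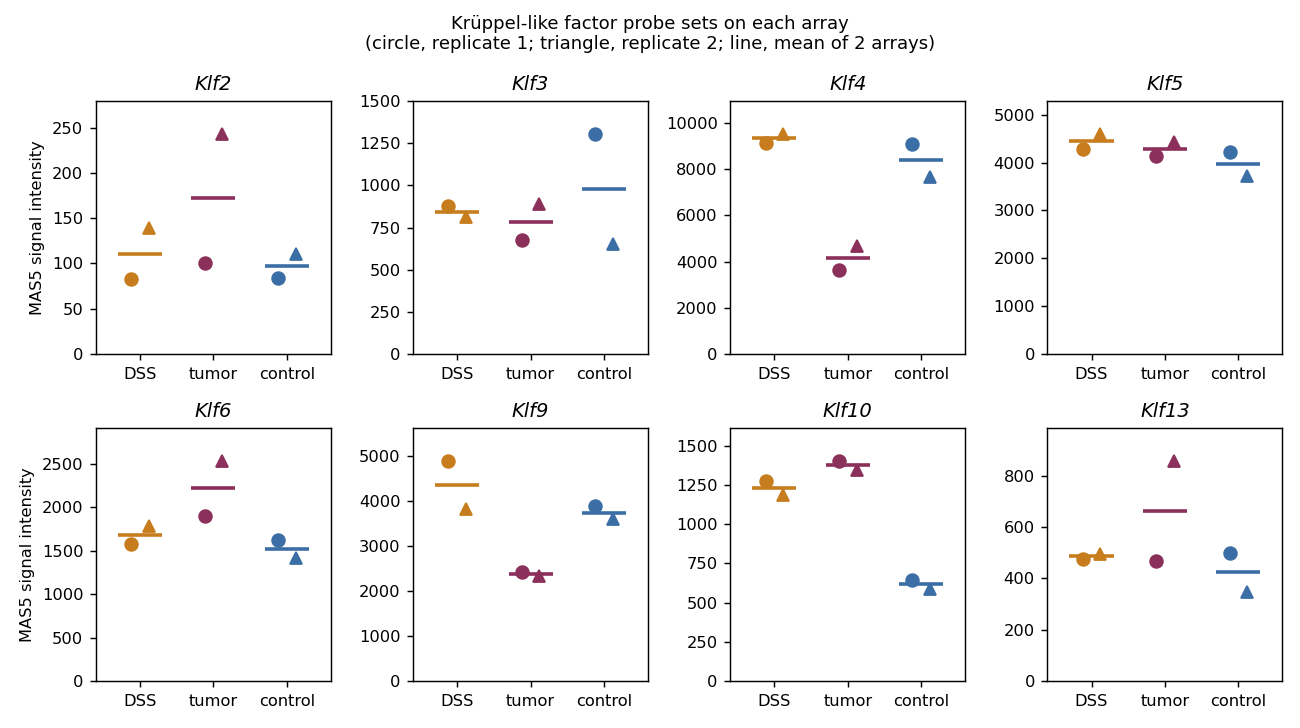
MAS5 signal intensity (linear axes from 0, a separate scale for each gene) of each member's tested probe set on the 2 DSS, 2 tumor and 2 control arrays; lines are means of 2 arrays. Klf4 and Klf9 are lowest on the tumor arrays, Klf10 is lowest on the control arrays, and Klf2 and Klf13 have 1 tumor array far above the other.

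Klf5, which promotes division of lower crypt cells, did not pass in any comparison. Its tested probe set measured 4286 and 4601 in DSS crypts, 4138 and 4431 in tumor crypts and 4228 and 3717 in control crypts. All 6 values lay within the range 3717 to 4601. The log2 difference was 0.16 in DSS crypts (95% interval -0.18 to 0.51) and 0.11 in tumor crypts (95% interval -0.23 to 0.45, adjusted p = 0.635), and the tumor value turned to -0.14 with each array centred on its median. The other Klf5 probe set disagreed with it in tumor crypts: it measured 974 and 1425 in DSS crypts, 830 and 559 in tumor crypts and 797 and 1524 in control crypts, a tumor difference of -0.68 ± 0.34 (adjusted p = 0.198), and the control arrays lay on both sides of a tumor array. Klf4 and Klf5 share a binding element and are known for opposite actions on division, and of this pair only Klf4 passed the test, while the difference between their changes was not tested.

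Klf6, an inducible factor known as a growth suppressor, was higher in tumor crypts on all 3 probe sets without passing. The tested set measured 1579 and 1786 in DSS crypts, 1901 and 2540.2 in tumor crypts and 1629 and 1418 in control crypts. Both tumor arrays were above all 4 others. The tumor difference was 0.53 ± 0.19 (adjusted p = 0.0831) on that set, with 0.48 and 0.31 on the other sets, and without tumor replicate 1 it passed at 0.73. In DSS crypts the 3 sets had differences of 0.14, 0.41 and 0.43, the last on a set that measured 400 and 430.3 in DSS crypts and 313 and 295 in control crypts. None of these passed.

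Klf2, which is known from endothelium and resting T cells, lay near the array medians, above them on 3 of the 6 arrays. It measured 82.7 and 139 in DSS crypts, 100.4 and 243 in tumor crypts and 84.3 and 111 in control crypts. In each group the array numbered 2 was the higher, and tumor replicate 2 stood above all others. The tumor difference was 0.61 ± 0.41 (adjusted p = 0.312), and it passed at 1.19 without tumor replicate 1. Summed intensities of the 12 endothelial genes were 320.0 and 650 in DSS crypts, 583 and 1691 in tumor crypts and 271 and 527 in control crypts, so they too were higher on the array numbered 2 of each group. Of those genes 6 stayed below the array median on all arrays, Pecam1 among them at 1.72 to 86.7. The 9 T and NK cell genes summed to 102 and 215 in DSS crypts, 108 and 325 in tumor crypts and 168 and 140.5 in control crypts, with Cd3e at 9.77 to 34.0. On tumor replicate 2, Thy1, which is also in the fibroblast list, gave 133 of the 325, and Cd3e was at 15.4. The part of endothelial, T and NK cells in the Klf2 values was not tested.

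Klf13, a regulator of chemokine transcription in T cells, showed the same high array. It measured 475 and 496 in DSS crypts, 469 and 858 in tumor crypts and 499 and 347 in control crypts. The lower tumor array lay between the control arrays, and the tumor difference of 0.59 ± 0.29 did not pass (adjusted p = 0.185), though it did at 1.01 without tumor replicate 1. Its second probe set gave 261 and 422 in tumor crypts and 278 and 223 in control crypts, a difference of 0.39 ± 0.25, and the third, not tested, measured 3.57 to 19.5. Tumor replicate 2 also had the higher summed markers of tumor crypts for fibroblast genes (16472, against 5430.1 on tumor replicate 1) and myeloid genes (10027 against 5260.4), where fibroblast genes summed to 3748 and 7284 in DSS and 2857 and 5919 in control crypts, and myeloid genes to 1826 and 2319 in DSS and 1963 and 2358 in control crypts. A few bright genes made up much of these sums. On tumor replicate 2 Vim gave 6413 of the fibroblast sum, and Lyz2 and Cd14 gave 5154 and 2645 of the myeloid sum. On tumor replicate 1 Vim gave 3477, Lyz2 2755 and Cd14 2020. Replicate 2 had the higher sums in DSS and control crypts too, while its Klf13 was the higher in DSS and the lower in control crypts. Whether fibroblasts or myeloid cells carry the Klf2, Klf6 or Klf13 of tumor replicate 2 was not tested.

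Klf3, a repressor that works through the corepressor CtBP, showed no difference beyond the spread of its controls on its tested probe set. It measured 879 and 813 in DSS crypts, 679 and 890.1 in tumor crypts and 1306 and 654 in control crypts. The control arrays enclosed all 4 others. Differences were -0.13 ± 0.30 in DSS crypts and -0.25 ± 0.30 in tumor crypts (adjusted p = 0.5997 for tumor), with 95% intervals of -0.83 to 0.57 and -0.94 to 0.45, and both changed sign without control replicate 1, to 0.36 and 0.24. Of its other 2 probe sets, the dimmest had arrays that did not overlap, at 158 and 138 in tumor crypts against 188 and 204 in control crypts, with a difference of -0.37 ± 0.21 (adjusted p = 0.248). That set measured 219 and 252 in DSS crypts, above both controls, and the tumor difference from DSS was -0.61 ± 0.21 (adjusted p = 0.0668).

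Counted over the 8 genes, 3 were called in tumor against control crypts, with Klf10 higher and Klf4 and Klf9 lower. Over all tested genes 22.5% were called in that comparison, 12.8% higher and 9.74% lower, so 3 of 8 has to be read against a comparison in which many genes changed. Of the called genes 56.8% were higher as scaled in the deposit, 49.1% after quantile normalization and 34.7% with each array centred on its median, which lowers every tumor difference from control by 0.25 and changed no member's call. Tumor and control arrays did not overlap for 4 of 8 members, against 61.5% of all tested genes, and 6 of 19 member probe sets were called against 19.6% of all probe sets. These 6 belong to the 3 called genes, and probe sets of the same gene are not independent. Against DSS crypts 2 of 8 were called, both lower, where 26.2% of all genes were called, 14.8% higher and 11.3% lower. Of the members 4 had tumor arrays clear of the DSS arrays, against 66% of all genes, and 6 of 19 member probe sets were called, against 23%. Here the 6 all belong to Klf4 and Klf9. In DSS against control crypts limma called 0 of 8 members and 0 of 7456 genes (0%), with unadjusted p under 0.05 for 1 member, Klf10, and for 189 of all genes. There 7 of the 8 members had positive log2 differences, whose median was 0.16 against 0.00449 over all genes, and 3 (Klf4, Klf5 and Klf10) did not overlap with control, against 26.5% of all genes. The tumor and DSS comparisons with control share the same 2 control arrays.

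**Figure D2:**
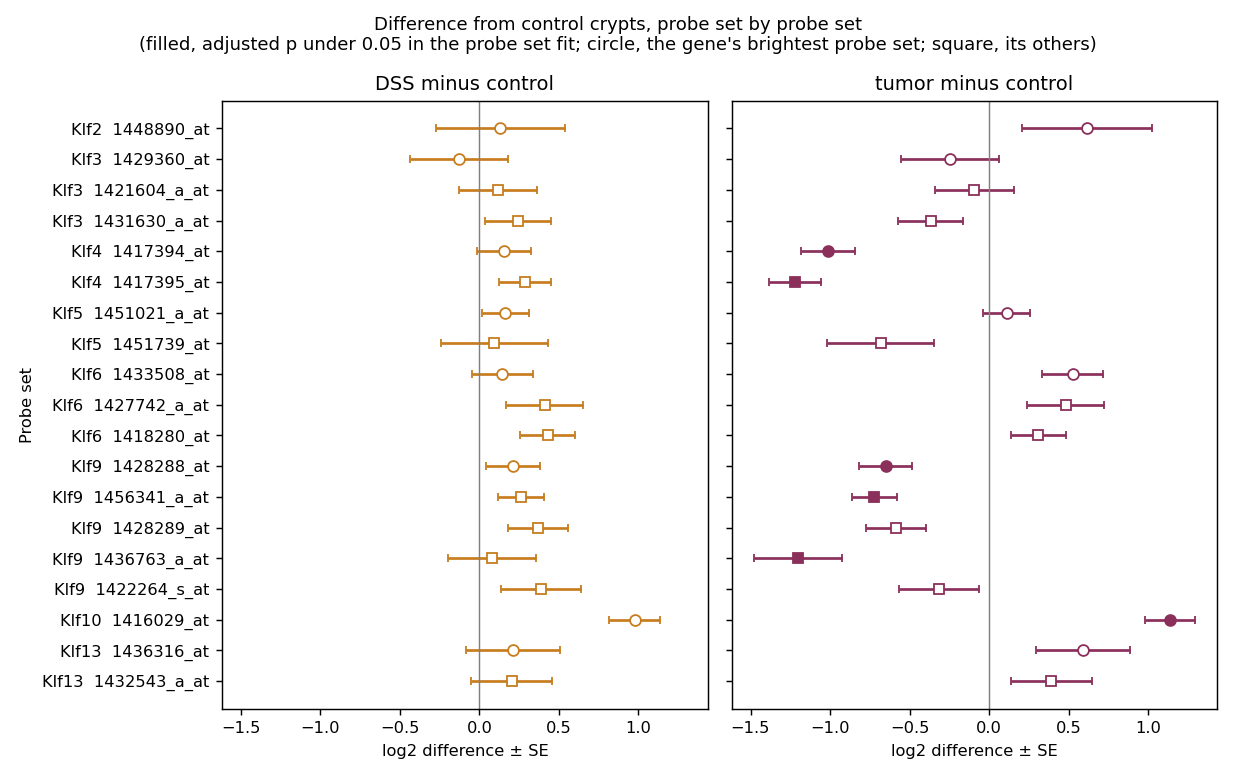
Log2 differences from control crypts with their SE for the 19 member probe sets past the filter, DSS minus control at left and tumor minus control at right; filled points had an adjusted p under 0.05. Filled points occur in the tumor panel alone: both Klf4 sets and 3 of 5 Klf9 sets left of 0, and Klf10 right of 0.

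Among other members of the family, Klf7 and Klf16 were tested and neither passed by its tested probe set. Of 9 further Klf genes 6 had a probe set of their own, and Klf1, Klf12, Klf15 and Klf17 stayed below the array median on all 6 arrays, at 1.12 to 33.8. Klf7 measured 353 and 394 in DSS crypts, 374 and 542 in tumor crypts and 315 and 310.2 in control crypts. Its tumor difference was 0.50 ± 0.21 (adjusted p = 0.127), but 2 of its 3 other probe sets passed in the fit of all probe sets, at 0.81 (adjusted p = 0.0447) and 0.90 (adjusted p = 0.0265), and the remaining one measured 0.77 (adjusted p = 0.0827). Klf16 had a tumor difference of 0.58 ± 0.37 (adjusted p = 0.288). Of the Sp factors, close relatives that bind the same GC boxes, 4 were tested and 1 rose: Sp5, a Wnt target, was listed at 3.27 and 6.51 in DSS crypts, 461 and 699 in tumor crypts and 2.23 and 6.56 in control crypts (log2 difference 4.73 ± 0.37, adjusted p = 0.000155). Its DSS and control values are at the bottom of the scale, so the size of that difference depends on the added 17.8. Sp5 passed the intensity filter through the tumor arrays alone and so could only be called higher, which limits what its call and the count of 1 in 4 show. Sp1 and Sp3 had tumor differences of 0.06 and -0.35 and did not pass.

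Partners and upstream pathways of the family are set here against all tested genes, of which 22.5% were called in tumor against control crypts, 12.8% higher and 9.74% lower. Of 11 tested cofactors and ubiquitin ligases, 1 rose and 1 fell in tumor crypts, with a median of 0.21 against 0.05 over all tested genes. The histone deacetylase Hdac2 rose by 0.64 ± 0.16 (1306 ± 30.4 in tumor, 835 ± 41.7 in control crypts, adjusted p = 0.0259). The ubiquitin ligase Wwp1, which targets Klf5 protein, was at 701 ± 0.276 in tumor and 1144 ± 56.1 in control crypts, a log2 difference of -0.69 ± 0.16 (adjusted p = 0.0166). Of 8 transforming growth factor beta genes tested, 2 rose, the receptor Tgfbr2 by 1.01 ± 0.19 (adjusted p = 0.00827) and the feedback regulator Skil by 0.50 ± 0.14 (adjusted p = 0.0415), with a median of 0.43. None of these 8 passed in DSS crypts, where 0 of all 7456 tested genes did. Their DSS median was 0.13, and Tgfbr2 had a difference of 0.20 ± 0.19. Of 5 EGF receptor to ERK genes 1 fell in tumor crypts, the kinase Map2k1 at -1.01 ± 0.15 (adjusted p = 0.00294). The other 4 had positive tumor differences without passing, and the median of the list was 0.50. Among them the immediate early factor Egr1 measured 6545 ± 660 in DSS, 5946 ± 2689 in tumor and 3265 ± 162 in control crypts, and it did not pass in DSS crypts either. Of the 4 tested genes of the ERK5 to MEF2 pathway, which drives Klf2 and Klf4 in endothelium, 0 passed, and Mef2a came nearest with 0.61 ± 0.19 in tumor crypts (adjusted p = 0.0548).

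Glucocorticoid response genes, listed for Klf9, had 1 of 9 tested that rose and 2 that fell in tumor crypts, against 12.8% higher and 9.74% lower over all genes. The glucocorticoid receptor Nr3c1 measured 747 ± 142 in DSS, 387 ± 13.5 in tumor and 864 ± 1.46 in control crypts, a tumor log2 difference of -1.13 ± 0.18 (adjusted p = 0.00417). Its target Tsc22d3 was at -1.26 ± 0.19 (adjusted p = 0.00264), and the EGF receptor inhibitor Errfi1 rose by 0.78 ± 0.20 (adjusted p = 0.0256). The target Fkbp5 had a difference of -0.62 ± 0.30 (adjusted p = 0.175) and did not pass. Of the 9 genes 5 had positive tumor differences, and the median was 0.04. Among these 5, Cebpd at 0.39 ± 0.16 and Dusp1 at 0.49 ± 0.21 did not pass either. In DSS crypts none of the 9 passed, where 0 of all 7456 tested genes did. The phosphatase Dusp1 had the smallest p there, with 5247 ± 703 in DSS and 2611 ± 66.1 in control crypts, a difference of 1.00 ± 0.21 (adjusted p = 0.711).

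Genes of the states that Klf4 and Klf5 are known to control were counted in the same way. Goblet cell genes fell in 7 of 12 cases in tumor crypts, where 9.74% of all genes fell, with a median of -0.99 against 0.05 over all genes and 0 of 12 higher. The secreted Clca1 was at -3.54 ± 0.23 and Atoh1, the factor that sets the secretory lineage, at -1.67 ± 0.22, while Spink4 had -0.08. Gfi1, among the 7, was below the array median on both tumor arrays and passed the filter through the DSS and control arrays alone. Colonocyte genes fell in 9 of 14 cases, with a median of -2.08, led by the carbonic anhydrase Car4 at -5.17 ± 0.51 and the water channel Aqp8 at -4.90 ± 0.36. The 1 colonocyte gene with a positive tumor difference was Emp1, at 0.91 ± 0.36, which did not pass, while Vil1 had -0.24. In DSS crypts 0 genes of either list passed, where 0 of all 7456 tested genes did. Goblet genes had a DSS median of 0.07 and colonocyte genes of -0.23, with Krt20 at -0.76 ± 0.19, Emp1 at -1.44 ± 0.36 and Tmigd1 at -1.79 ± 0.40. Positive DSS differences were seen in 3 of 14 colonocyte genes, with Cyp2c55 at 0.62 ± 0.27. Of 11 cell cycle genes described as Klf4 or Klf5 targets, 6 rose in tumor crypts and 0 fell, where 12.8% of all genes rose, and their median was 0.79. Cyclin D1, Ccnd1, measured 2531 ± 269 in tumor and 909 ± 316 in control crypts (log2 difference 1.50 ± 0.24, adjusted p = 0.00388), Myc 706 ± 99.3 in tumor and 294 ± 54.6 in control crypts, and the survival factor Birc5 1109.9 ± 78.1 in tumor and 529 ± 80.9 in control crypts. Cdkn1a, the p21 inhibitor that Klf4 is known to activate, did not pass, at -0.35 ± 0.16 in DSS and -0.33 ± 0.16 in tumor crypts, while the inhibitor Cdkn1c rose by 2.68 ± 0.30. Summed levels of the 12 goblet genes were 92321 and 79113 in DSS, 54691 and 38999 in tumor and 87795 and 77889 in control crypts. These sums and Klf4 were both lower on the tumor arrays than on all others, but tumor replicate 1 had the higher sum and the lower Klf4. The 14 colonocyte genes summed to 55700 and 62408 in DSS, 29810 and 24807 in tumor and 67145 and 71794 in control crypts. Whether Klf4 fell by way of goblet cells or colonocytes was not tested.

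**Figure D3:**
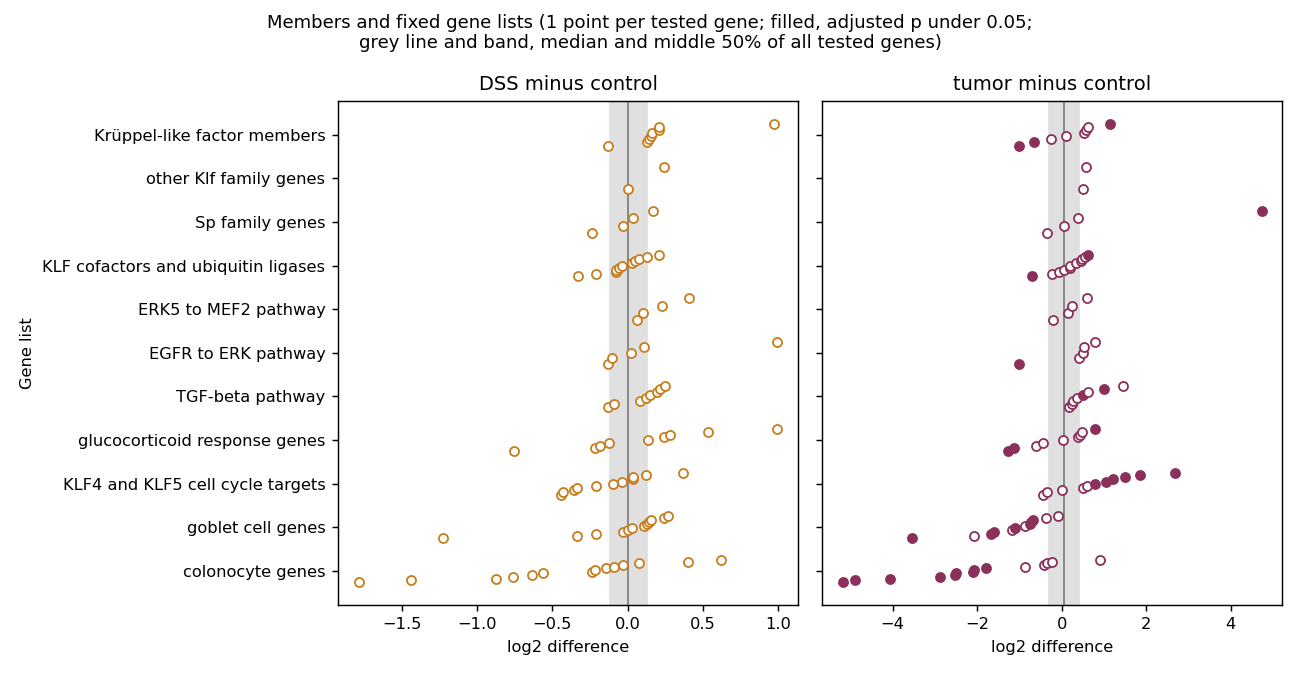
Log2 differences of the 8 members and of the tested genes of 10 fixed lists, DSS minus control at left and tumor minus control at right; each point is a gene, filled where its adjusted p was under 0.05, and the grey line and band are the median and middle 50% of all tested genes. No point is filled in the DSS panel, and in the tumor panel the filled goblet and colonocyte genes lie left of 0.

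The genes most alike in pattern were those with the smallest root mean square difference from a member, over the 6 arrays, in log2 values centred on each gene's mean. For Klf4 these were the stomach and colon protease Capn9 at 0.06 and the phospholipase Plce1 at 0.07, with tumor differences of -1.08 and -1.05 against -1.01 for Klf4. For Klf9 the homeobox gene of the distal gut Hoxb13 was nearest at 0.04, with 0.12 in DSS and -0.66 in tumor crypts, followed by Nipsnap2 at 0.07. For Klf10 no gene came as near: Bik, a promoter of cell death, was at 0.18, with differences of 0.87 in DSS and 1.20 in tumor crypts, and the hyaluronidase Hyal2 at 0.23. The nearest were Ankhd1 and Parva for Klf5, Acvr1 and Ptov1 for Klf6, Cic and Tmem184b for Klf2, Sh3d19 and Dennd11 for Klf3, and Ctdp1 and St14 for Klf13, at 0.03 to 0.12. Among 7456 genes and only 6 arrays some genes lie near any pattern, so nearness is a description.

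**Figure D4:**
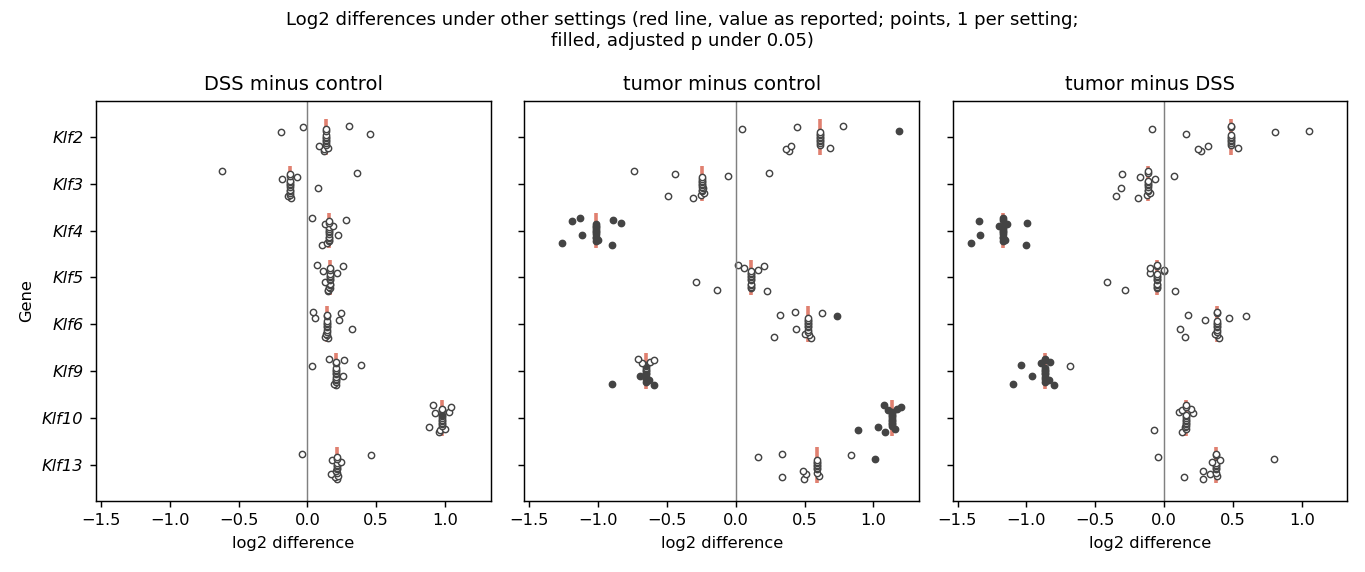
Log2 differences of the 8 members in the 3 comparisons as reported (red lines) and under each of up to 18 other settings (points, filled where the adjusted p was under 0.05). Klf4 and Klf10 keep filled points at every setting in tumor minus control, Klf9 has filled and open points there, and the 1 filled Klf10 point in DSS minus control lies among open ones.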

How the data were processed

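The study deposited 1 table for 6 Affymetrix arrays, with 22690 probe sets. Per the submitters' processing notes, the authors made the signal intensity values with MAS5, whose version is not given in the sources used here. As computed here, each array's mean with 2% trimmed at both ends was 500.2, and detection calls were not analysed. The number of arrays limits the precision.

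After 64 control probe sets were set aside, 22626 remained: 20380 with 1 gene symbol, 691 with several and 1555 with none. The constant 17.8, which is the 25th percentile over the table, was added before log2. A filter kept 12146 probe sets that exceeded the array median on 2 or more arrays, and the one with the highest mean per gene was tested (7456 genes). limma 3.58.1 in R 4.3.3 fitted all 3 groups with an intensity trend, Benjamini-Hochberg adjustment and a 2-sided threshold of 0.05. Errors of log2 differences are SE from this fit, and exact permutation of 2 against 2 arrays cannot go below p = 0.333. Fits were tested on simulated data.

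The members and the 17 gene lists (190 entries) were chosen with earlier results of these data known, and no set test was run. Named were all members, their 2 nearest genes and genes of smallest p in each list; others were chosen after their values were seen. The alternatives were quantile normalization, median centring, other pseudocounts and filters, other uses of probe sets, no intensity trend, 2-group fits, a block on replicate number, and leaving out each array. Python 3.11.15 with matplotlib 3.10.9 drew the plots.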

Additional observations from a re-analysis of the deposited data

Results flagged for a closer look

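Klf4 and Klf9 differed between the 2 conditions set against control: their means were higher than control in DSS crypts and lower in tumor crypts. The log2 difference between tumor and DSS crypts was -1.17 for Klf4 (limma adjusted p = 0.00219) and -0.86 for Klf9 (adjusted p = 0.00785), whereas neither gene's DSS difference from control passed. Groups of 2 arrays are too small for a check of single outlying arrays.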

How the results depend on the processing

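Of 426 log2 differences of members under other settings, 403 kept their direction and their side of the threshold, 4 passed only under the other setting, 6 ended their call and 13 changed sign, each of the last on a difference that had not passed. Median centring shifted each tumor difference from control by -0.25 and the median of all genes to -0.20, with 34.7% of called genes higher against 56.8% as reported (35.7 against 56.8% for tumor minus DSS). Median centring turned Klf5 to -0.14 in tumor minus control and Klf10 to -0.0738 in tumor minus DSS. The mean over probe sets turned Klf3 to 0.0772 in DSS minus control and Klf5 to -0.29 in tumor minus control, and quantile normalization turned Klf5 to 0.0774 in tumor minus DSS, with 49.1% of called genes higher in tumor minus control and 49.3% in tumor minus DSS. The causes were not tested.

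With an array left out, genes called ranged from 0 to 2 in DSS minus control, 844 to 1743 in tumor minus control and 895 to 1918 in tumor minus DSS. Members called ranged from 2 to 5 in tumor minus control (5 without tumor replicate 1) and 1 to 2 in tumor minus DSS. Log2 differences ranged in DSS minus control from -0.19 to 0.45 for Klf2, -0.62 to 0.36 for Klf3 and -0.0401 to 0.46 for Klf13, in tumor minus control from -0.74 to 0.24 for Klf3, and in tumor minus DSS from -0.0882 to 1.05 for Klf2, -0.31 to 0.0734 for Klf3 and -0.0472 to 0.80 for Klf13. A lone array left in a group was assumed to vary like the others. The 75th percentile filter, which tests fewer genes and left out Klf2 and Klf13, called 1099 genes in tumor minus control and 1260 in tumor minus DSS.

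The replicate block with all 3 groups called 0, 1944 and 2208 genes in DSS minus control, tumor minus control and tumor minus DSS and changed no member's call. The replicate numbers are not stated to pair the samples, and deviations from group means correlated across genes at 0.45 for DSS and control, 0.08 for tumor and control and 0.44 for tumor and DSS. With only the groups compared in the replicate block fit, added after seeing the data, 124 genes and 1 member (Klf10) were called in DSS minus control and 2940 genes in tumor minus DSS, and the Klf9 call in tumor minus control ended (adjusted p = 0.0675). Intensity limits Klf2 most: near the array median, an added constant and background weigh on its differences.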
